A study of Mus musculus with 24 samples.

Results

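The genes described here are 10 symbols listed as subunits of SWI/SNF chromatin remodelers: Smarca4, Smarca2, Smarca5, Smarcb1, Smarcc1, Smarcd1, Smarce1, Arid1a, Arid1b and Actl6a. They were chosen by name, each symbol was matched to its Ensembl gene ID, and all 10 were found among the 55471 annotated genes of the count tables. The study asked how the RNA modification N6-methyladenosine (m6A) and its readers act in the maternal-to-zygotic transition of the mouse, in oocytes and embryos labelled B6D2F1, a hybrid of C57BL/6 J and DBA/2N. MII oocytes, late 1-cell (L1C) embryos and late 2-cell (L2C) embryos each gave 3 input libraries, which are the RNA-seq of their stage, and 3 libraries of RNA pulled down with an antibody to m6A (IP), 18 libraries in all. In a second experiment zygotes received Cas13d mRNA with 3 crRNAs against Ythdc1, the nuclear reader of m6A (KD, 3 libraries), or Cas13d mRNA without a crRNA (Ctrl, 3 libraries), and were collected at L2C. The Ctrl embryos therefore carried the nuclease but no guide of any sequence. The labels give neither how many oocytes or embryos a library holds nor whether the 3 libraries of a group came from separate collections, so p-values measure the spread between these libraries.

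SWI/SNF complexes use the energy of ATP to slide or evict nucleosomes, which opens promoters and enhancers to transcription factors. Each complex is built on a single ATPase, BRG1 (gene Smarca4) or BRM (Smarca2), and carries a core of scaffold proteins, an actin-related module and, in the BAF form, an ARID1 subunit that marks the form. Maternal BRG1 is known to be needed for the activation of the zygotic genome in mouse embryos. Smarca5 is listed with them but encodes SNF2H, the ATPase of the separate ISWI complexes, which space nucleosomes, and it is therefore described apart. Actl6a (BAF53A) is a shared subunit that also sits in INO80, SRCAP and TIP60 complexes.

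The depth and identity of the libraries bear on all values below. Total estimated counts ran from 11107421 to 39739950 over the 18 IP and input libraries, and the L2C IP replicate 2 was the shallowest. KD replicates 1 and 2 and the Ctrl libraries held 8696476 to 14500548 counts on the whole annotation. The counts of KD replicate 3 end on chromosome 7, so that 8 members could be tested only with KD replicates 1 and 2 against the 3 Ctrl libraries, and all 6 libraries cover only Arid1a and Actl6a. The 12 oocyte transcripts checked summed to 22970 to 24370 CPM (counts scaled to libraries of equal size, with TMM factors) in MII inputs and to 1216 to 1261 in L2C inputs, while the 11 2-cell transcripts summed to 25.1 to 28.3 and to 1041 to 1210. Of the 10 cumulus cell markers 1 was at 0 in every MII input (Ptx3) and the highest was Cyp19a1 with a mean of 35.7 CPM, and the 10 summed to 40.7 to 48.5 CPM there and to 3.09 to 4.35 in L2C inputs. The 6 sperm and testis markers summed to 3.16 to 4.01 CPM in MII inputs and to 55.7 to 73.7 in L2C inputs, where Prm1 alone had a mean of 61.9 and Tnp1 was at 0. The part of cumulus and sperm RNA in the results was not tested. In such bulk libraries a lower share of RNA from some cells and less RNA per cell cannot be told apart.

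The sequence of Smarca5 (chromosome 8, 80698507 to 80739497, minus strand, GRCm38) limits what its counts can say, and is shown for that reason. The GENCODE M21 annotation of the same build holds 6 processed pseudogenes of Smarca5 between 145464204 and 147738426 on chromosome 4, namely Gm13034, Gm13135, Gm13136, Gm13140, Gm13231 and Smarca5-ps. Over the bases aligned without gaps they were 97.6% to 98.4% identical to the Smarca5 coding sequence, and 77.6% of the 3123 words of 31 bases in that sequence occurred unchanged in at least 1 copy. The stretch below is 60 coding bases of exon 3 of 24, chr8:80733756-80733815 on the minus strand, a window with the median number of differences over the 6 copies (5) among 1058 windows. It is printed 5′ to 3′, with a capital where a copy differs from Smarca5.
Smarca5: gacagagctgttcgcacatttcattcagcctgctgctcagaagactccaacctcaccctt
Gm13034: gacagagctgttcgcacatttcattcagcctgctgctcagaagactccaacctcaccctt
Gm13135: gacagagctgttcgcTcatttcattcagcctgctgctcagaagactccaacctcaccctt
Gm13136: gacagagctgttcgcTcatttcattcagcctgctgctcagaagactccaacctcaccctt
Gm13140: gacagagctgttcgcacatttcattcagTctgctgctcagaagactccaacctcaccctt
Gm13231: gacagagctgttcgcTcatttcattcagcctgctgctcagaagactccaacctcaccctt
Smarca5-ps: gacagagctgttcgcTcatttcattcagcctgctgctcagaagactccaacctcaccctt

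In this window Gm13034 equals Smarca5 and each of the other copies differs at 1 base. A read from such a stretch tells the gene from a copy only where it covers a base that differs. The level of Smarca5 is therefore uncertain and is given with the sum of its copies. Smarce1 (chromosome 11, 99209047 to 99231017, minus strand) has 5 such copies, of which Gm8494 (98.9% identical) and Smarce1-ps1 (98.3%) exceeded 1 CPM. The single copies found for Actl6a, Arid1a and Smarcc1 stayed under 1 CPM in every group of inputs and of KD and Ctrl libraries.

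The ATPase genes of SWI/SNF moved in opposite directions at the 2-cell stage. Smarca4 (chromosome 9, 21616169 to 21704230, plus strand) had 72.9, 75.0 and 69.3 CPM in the 3 MII inputs, then 27.2, 37.8 and 38.1 in the L1C inputs, and 220.4, 254 and 246 in the L2C inputs. No 2 stages overlapped, with the lowest values at L1C and the highest at L2C. Smarca4 fell by 1.08 on the log2 scale from MII to L1C (SE 0.14, edgeR quasi-likelihood test with Benjamini-Hochberg adjustment, adjusted p 8.5e-06) and rose 6.99-fold from L1C to L2C (log2 2.81, SE 0.15, adjusted p 1.8e-11). Smarca2 (chromosome 19, 26605050 to 26778322, plus strand) had 104, 103 and 113 CPM at MII, then 97.1, 89.3 and 112 at L1C, and 21.8, 24.8 and 23.7 at L2C. Its MII and L1C inputs overlapped and its L2C inputs lay below all of them. Smarca2 fell by 2.08 on the log2 scale from L1C to L2C (SE 0.13, adjusted p 1.7e-10), a 4.24-fold lower level. An antisense transcript, 4931403E22Rik, overlaps the end of Smarca2 and had a mean of 650.5 counts per input library against 1651.5 for Smarca2. Reads of the pair cannot be told apart where they overlap unless strand was used in counting, which the sources used here do not give for these libraries.

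**Figure D1:**
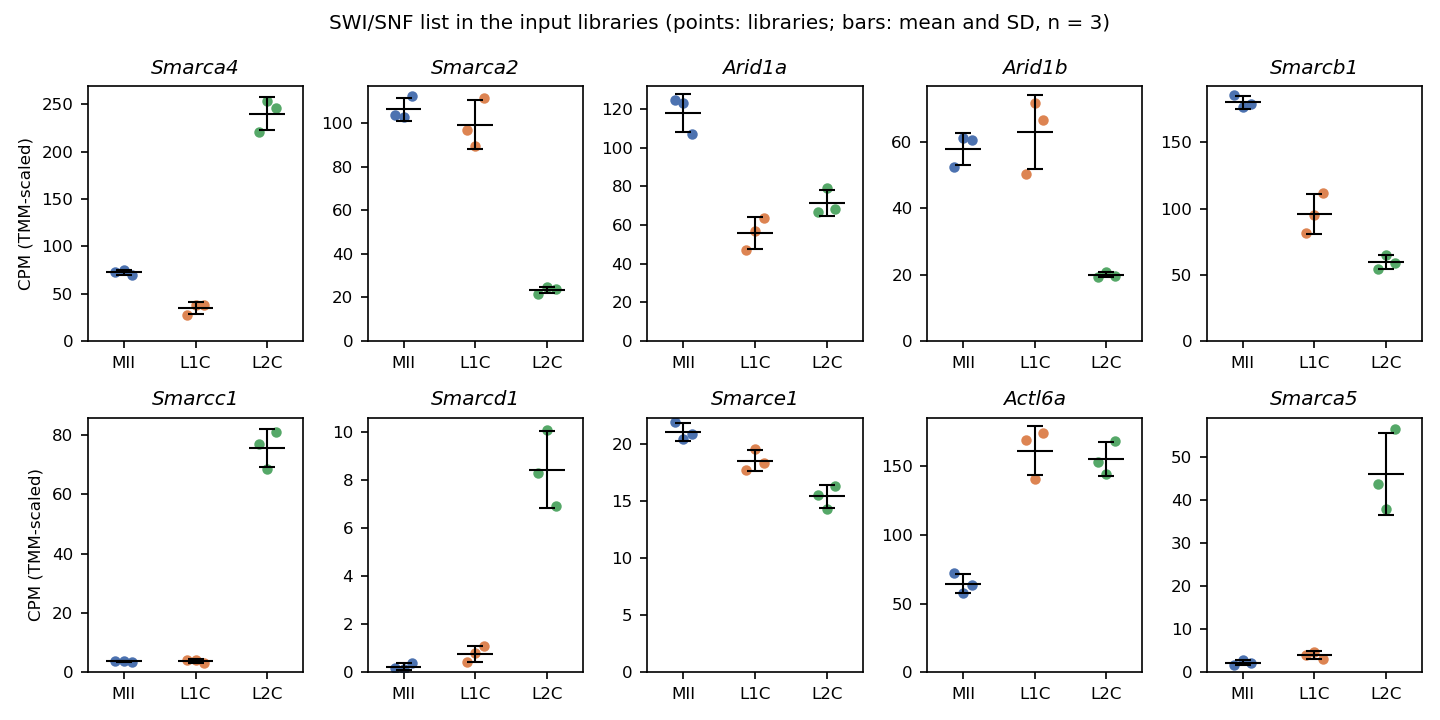
CPM (TMM-scaled, vertical axes start at 0 and differ between panels) of the 10 genes in the input libraries of MII oocytes, L1C and L2C embryos; points are libraries and bars the mean and SD of 3. Smarca4, Smarcc1, Smarcd1 and Smarca5 are highest at L2C, where Smarca4 reaches 220.4 to 254 CPM, and Smarca2 and Arid1b are lowest there.

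The ARID1 subunits, alternative large subunits that bind DNA and define the BAF form, differed in timing. Arid1a (chromosome 4, 133679008 to 133756769, minus strand) had 125, 123 and 107 CPM in the MII inputs, then 47.1, 56.9 and 63.6 at L1C, and 66.5, 79.1 and 68.5 at L2C. It fell by 1.08 on the log2 scale from MII to L1C (SE 0.14, adjusted p 6.2e-06), and all L1C libraries were below all MII libraries. Its rise from L1C to L2C was small (log2 0.35, SE 0.14, adjusted p 0.026) and was lost when L1C input replicate 1 (log2 0.22, adjusted p 0.13), L1C input replicate 2 (0.057) or L2C input replicate 2 (0.10) was left out, without a filter on low counts (0.051) and with only the stages compared in the fit (0.12). Arid1b (chromosome 17, 4994332 to 5347656, plus strand) had 52.5, 61.1 and 60.6 CPM at MII, then 50.4, 71.8 and 66.8 at L1C, and 19.4, 20.9 and 19.6 at L2C. Its MII and L1C libraries overlapped, and it fell by 1.66 on the log2 scale from L1C to L2C (SE 0.15, adjusted p 2e-08).

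Among the core subunits, the scaffold gene Smarcc1 (BAF155; chromosome 9, 110117708 to 110240178, plus strand) changed most at the 2-cell stage. Its inputs held 3.83, 3.79 and 3.49 CPM at MII, then 4.27, 4.32 and 3.23 at L1C, and 77.0, 68.7 and 81.2 at L2C. The L2C libraries were 19.1-fold above L1C (log2 4.26, SE 0.17, adjusted p 6.3e-13), while MII and L1C overlapped. Dhx30, on the opposite strand, overlaps the start of the Smarcc1 span and had a mean of 2563.5 counts per input against 823.5 for Smarcc1. Smarcd1 (BAF60A; chromosome 15, 99702129 to 99713991, plus strand) had 4, 3 and 7 counts in the MII inputs, then 10, 17 and 20 at L1C, and 245, 212 and 273 at L2C. It passed the filter on low counts through the L2C libraries, without which it would not have been tested, so its levels of 0.239 ± 0.135, 0.763 ± 0.328 and 8.43 ± 1.60 CPM (SD, n = 3) are given as a description.

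Smarcb1 (SNF5; chromosome 10, 75896769 to 75921617, minus strand), a core subunit of the BAF and PBAF forms, fell at each step. Its inputs held 186, 177 and 179 CPM at MII, then 81.2, 95.1 and 112 at L1C, and 54.5, 65.2 and 58.6 at L2C. No stages overlapped, and the level fell by 0.91 on the log2 scale from MII to L1C (SE 0.14, adjusted p 2.8e-05) and by 0.69 from L1C to L2C (SE 0.14, adjusted p 0.00017). Smarce1 (BAF57), an HMG-box subunit, moved least of the 10 from MII to L2C. It had 21.9, 20.4 and 20.8 CPM at MII, then 17.7, 19.5 and 18.3 at L1C, and 15.5, 14.3 and 16.4 at L2C. It fell by 0.45 on the log2 scale from MII to L2C (SE 0.14, adjusted p 0.0086), and with its 5 copies added to its counts the value was -0.32 (adjusted p 0.047). Library size scaling without TMM gave -0.30 (adjusted p 0.056).

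The actin-related Actl6a (chromosome 3, 32706298 to 32726973, plus strand) rose before the 2-cell stage. Its inputs held 71.9, 58.1 and 63.5 CPM at MII, then 169, 141 and 174 at L1C, and 153, 144 and 168 at L2C. It rose from MII to L1C (log2 1.32, SE 0.13, adjusted p 4.6e-07), and its L1C and L2C libraries overlapped. Mrpl47 overlaps the end of Actl6a on the opposite strand, with a mean of 212 counts per input against 3157.8 for Actl6a.

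Smarca5, the ISWI ATPase, had 1.77, 2.95 and 2.14 CPM in the MII inputs, then 4.10, 4.83 and 3.13 at L1C, and 43.9, 38.0 and 56.5 at L2C. Its 6 copies together had 1.46, 1.60 and 1.41 CPM at MII, then 6.34, 5.34 and 4.42 at L1C, and 193, 131 and 170 at L2C. At L2C more counts were thus assigned to the copies than to the gene, and both were far above their L1C levels. These counts are over whole gene spans and the copies are processed pseudogenes, and the division of reads between them was not tested. In Ctrl embryos, counted over exons, the gene had a mean of 656 CPM and the copies 527. Smarca5 was 11.4-fold higher at L2C than at L1C (log2 3.52, SE 0.23, adjusted p 1.8e-10), and 4.48 in log2 with the copies added (adjusted p 1.1e-12). Its rise from MII to L1C (log2 0.82, SE 0.24, adjusted p 0.0085) reached an adjusted p of 0.05 without MII input replicate 1, and with the copies added it was 1.32 (adjusted p 2.4e-05).

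All 10 members passed the filter in the inputs, but Smarcd1 only through its L2C libraries, so the counts are given over the other 9. From MII to L1C 2 of them rose (Smarca5 and Actl6a) and 3 fell (Smarca4, Smarcb1 and Arid1a), beside 32% and 24.2% of the 19903 genes tested. From L1C to L2C 4 were higher (Smarca4, Smarca5, Smarcc1 and Arid1a) and 3 lower (Smarca2, Smarcb1 and Arid1b), beside 44% and 38.7% of all genes. From MII to L2C 4 were higher (Smarca4, Smarca5, Smarcc1 and Actl6a) and 5 lower (Smarca2, Smarcb1, Smarce1, Arid1a and Arid1b), beside 47.4% and 37% of all genes. The median log2 change of the 9 was -0.10, -0.06 and -0.45 over these comparisons, and that of all genes tested 0.16, 0.17 and 0.40. Each of these counts lies within 2 genes of the number that those shares give for 9 genes. CPM measure a gene against the rest of its library and carry no information on the mRNA content of an embryo. The paper states that reverse transcription was primed with oligo-dT, so these values cover RNA caught by its poly(A) tail. Whether tails changed between stages was not tested.

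Levels of different members can be compared only per length. On the deposited TPM, which divide by the whole gene span, Smarcb1 was highest at MII with 57.8 ± 2.72 TPM (SD, n = 3), followed by Actl6a with 24.9 ± 3.14 and Arid1a with 12.0 ± 1.20. At L1C Actl6a led with 51.0 ± 5.82 TPM. At L2C Actl6a had 36.1 ± 3.08 TPM, before Smarca4 with 12.9 ± 0.52 and Smarcb1 with 11.4 ± 0.73. Libraries of Smarca4 (12.4 to 13.4 TPM) and Smarcb1 (10.9 to 12.3 TPM) came close but did not overlap. Per kilobase of merged exons, Smarcb1 also led at MII with 22.8 ± 0.62 CPM per kb and Actl6a at L1C with 41.5 ± 4.62 (SD, n = 3). At L2C Actl6a (39.9 ± 3.15) and Smarca4 (37.1 ± 2.72) did not differ beyond their spread, and Smarcc1 (9.66 ± 0.81) was next. Smarcc1 took rank 8 by TPM and rank 3 per exon kilobase at L2C, since its exons are 6.4% of its span. Smarcd1 was last at MII on both scales.

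By Pearson r of log2 CPM over the 9 inputs, the protein-coding genes most like Smarca4 among 14870 with a mean of at least 10 counts were Ctc1 (0.999), Usp36 (0.999) and Gtf2h4 (0.999). Usp36, a deubiquitinase of the nucleolus, had means of 67.4, 30.02 and 210.7 CPM at MII, L1C and L2C. Ctc1, of the telomere-binding CST complex, had 30.5, 16.6 and 73.0 CPM, and Gtf2h4, a TFIIH subunit, 11.8, 5.02 and 42.3 CPM. Within the list r with Smarca4 was 0.907 for Smarcc1 and 0.836 for Smarca5, and it was -0.894 for Smarca2 and -0.902 for Arid1b. The 9 points share 3 stages, so these values describe the stage pattern and carry no test.

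The promoter of Smarca4 is shown as that of the SWI/SNF ATPase gene whose level moved most from L1C to L2C. The 250 bases before its start, chr9:21615919-21616168 (plus strand, RefSeq, GRCm38.p6), are printed 5′ to 3′ with GGGCGG, or its reverse complement, in capitals.
Smarca4: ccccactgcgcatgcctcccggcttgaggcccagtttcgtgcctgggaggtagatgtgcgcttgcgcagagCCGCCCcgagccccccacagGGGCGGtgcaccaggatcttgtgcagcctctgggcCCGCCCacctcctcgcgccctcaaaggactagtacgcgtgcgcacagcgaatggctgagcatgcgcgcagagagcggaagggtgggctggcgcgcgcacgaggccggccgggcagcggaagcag

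Smarca4 has 25 CG and 3 GGGCGG in this stretch, and Smarca2 has 28 and 2 in its own. GGGCGG stood in the promoters of all 9 members with an entry and in 32.7% of 32851 promoters, and the median count of CG was 6 over all promoters. CCAAT (in 33.8% of promoters), TATAAA (12.4%) and CACGTG (6%), searched on both strands, stood in no promoter of a member. Smarce1 has no entry. These are descriptions of letters in the window.

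Genes of related remodelers, taken from lists fixed by name, moved in both directions too. Of 20 other BAF, PBAF and ncBAF subunits 18 were tested in the inputs, of which 3 rose and 11 fell from MII to L1C, beside 32% and 24.2% of all 19903 genes. Apart from Smarcd3, 9 of the other 17 were higher and 5 lower at L2C than at L1C, beside 44% and 38.7% of all genes, and the same shares hold for the lists that follow. Ss18l1, a paralog of the BAF subunit Ss18, had the largest rise of that list from MII to L1C (log2 3.98, SE 0.17, adjusted p 9.2e-12) and the largest fall from L1C to L2C (log2 -2.86, SE 0.15, adjusted p 2.2e-11), with means of 4.06, 64.5 and 8.89 CPM at MII, L1C and L2C. The largest fall from MII to L1C was that of Bcl7b (log2 -1.77, SE 0.14, adjusted p 3e-08). Smarcd3, another BAF60 paralog, had 2, 3 and 7 counts at L1C and 64, 62 and 84 at L2C, and passed the filter only through its L2C libraries, which is why it is left out of that count. Of 11 tested ISWI complex genes, partners of Smarca5, 8 fell from MII to L1C and 0 rose (edgeR, with 1 higher at an unadjusted p under 0.05, and 0 by DESeq2), and 7 were higher and 3 lower at L2C than at L1C, with Rsf1 (log2 2.90, SE 0.20, adjusted p 5.5e-10) and the histone chaperone Rbbp7 (log2 -2.13, SE 0.14, adjusted p 3.1e-10) at the ends. Of 18 CHD and NuRD genes 2 rose and 11 fell from MII to L1C, led by Hdac1 (log2 2.86, SE 0.26, adjusted p 1.3e-07) and Chd7 (log2 -1.16, SE 0.14, adjusted p 2.5e-06), and 12 were higher and 4 lower at L2C than at L1C. Mta2, a NuRD subunit, rose from a mean of 4.45 to 1231 CPM (log2 8.11, SE 0.20, adjusted p 6.2e-15), and Mbd2 fell (log2 -2.64, SE 0.19, adjusted p 8e-10). Of 18 INO80 family genes 1 rose from MII to L1C (Ruvbl2, log2 0.71, SE 0.15, adjusted p 0.00074) and 9 fell, led by Nfrkb (log2 -2.57, SE 0.15, adjusted p 6.5e-10). Actr5 passed the filter only through L2C as well, with 7, 12 and 4 counts at L1C and 190, 155 and 226 at L2C. Of the other 17 INO80 family genes 10 were higher and 6 lower at L2C than at L1C, where Actr8 fell most (log2 -2.68, SE 0.14, adjusted p 1.9e-11).

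IP over input asks which RNAs the m6A antibody enriched relative to the other RNA of the library. Ythdc1, for comparison, was enriched at each stage (log2 0.78, 0.88 and 1.24). In the list enrichment was modest outside Smarca5. Smarca5 had 8.11, 7.26 and 16.3 CPM in the MII IPs against 2.16, 3.53 and 2.55 in the inputs, on the scale of all 18 libraries, and no IP library overlapped an input. Its log2 IP/input was 1.94 at MII (SE 0.40, adjusted p 0.0011) and 1.40 at L1C (SE 0.37, adjusted p 0.0085), and at L2C the IP and input libraries overlapped (log2 0.33, SE 0.34, adjusted p 0.45). With the copies added the values were 1.73, 0.77 and 0.00, and the call at L1C was lost (adjusted p 0.054).

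**Figure D2:**
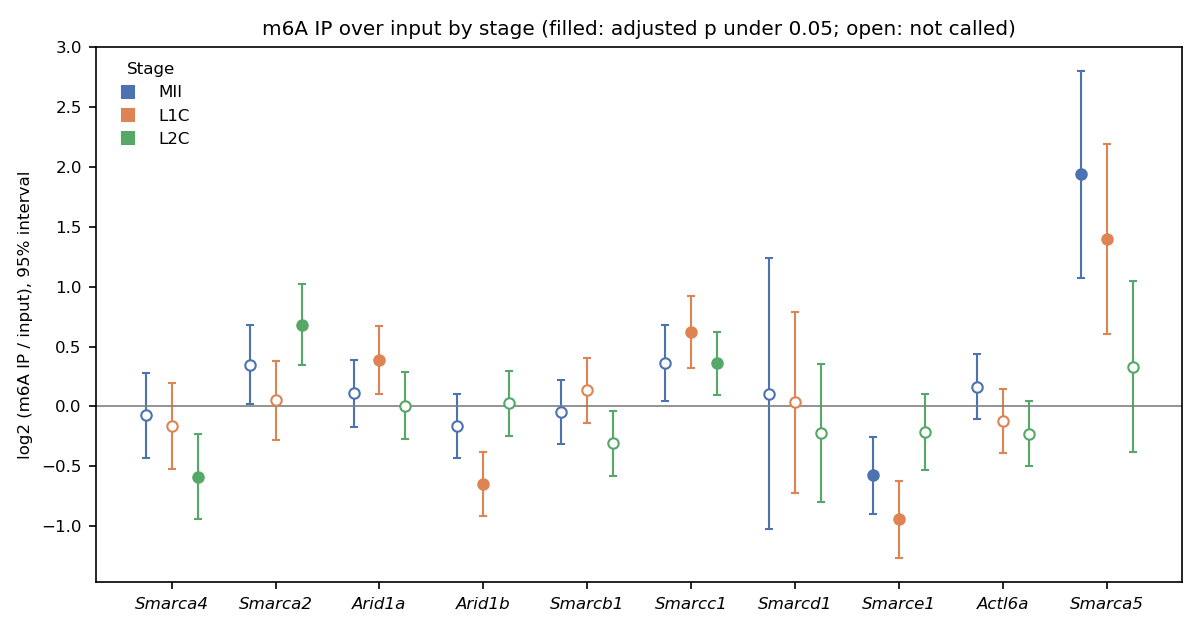
Log2 of m6A IP over input for the 10 genes at MII, L1C and L2C, with the 95% interval of the edgeR fit on 18 libraries; filled points passed an adjusted p under 0.05 and open points did not. Smarca5 lies highest at MII (1.94), and Smarce1 lies lowest at L1C (-0.94).

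Of the SWI/SNF members, Smarcc1 was enriched at L1C, with 7.34, 6.59 and 6.84 CPM in the IPs against 4.89, 4.91 and 3.63 in the inputs (log2 0.62, SE 0.14, adjusted p 0.0021). At L2C its IPs held 101, 81.9 and 97.2 CPM against 74.5, 65.1 and 78.6 (log2 0.36, SE 0.13, adjusted p 0.026). The L2C libraries of both kinds did not overlap, but this call was lost without L2C input replicate 1 (adjusted p 0.057), L2C input replicate 2 (0.13), L2C IP replicate 1 (0.11) or L2C IP replicate 3 (0.091), and without a filter (0.16). At MII Smarcc1 had 5.89, 5.86 and 5.48 CPM in the IPs against 4.69, 4.55 and 4.16 in the inputs, without overlap, and did not pass the test (log2 0.36, SE 0.15, adjusted p 0.067), while DESeq2 called it (log2 0.43, adjusted p 0.022). Smarca2 was enriched at L2C, with 27.2, 50.2 and 31.8 CPM in the IPs against 21.1, 23.5 and 22.9 in the inputs (log2 0.68, SE 0.16, adjusted p 0.0019). The highest of these IP values is that of replicate 2, the shallowest library, and without it the value was 0.39 (adjusted p 0.018). Arid1a at L1C had 82.4, 86.6 and 79.6 CPM against 54.0, 64.7 and 71.4 (log2 0.39, SE 0.14, adjusted p 0.032), a call lost without L1C input replicate 1 (0.15), L1C input replicate 2 (0.064), L1C IP replicate 1 (0.11) or L1C IP replicate 2 (0.099), without a filter (0.054) and with the replicate number as a block within its stage (0.056).

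Smarce1, Arid1b and Smarca4 were each below their inputs at a stage. Smarce1 had 18.6, 14.6 and 18.0 CPM in the MII IPs against 26.8, 24.5 and 24.8 in the inputs (log2 -0.57, SE 0.15, adjusted p 0.0052), and 9.16, 10.4 and 13.1 against 20.3, 22.2 and 20.6 at L1C (log2 -0.94, SE 0.16, adjusted p 6.5e-05). With its copies added the value at MII was -0.16 (adjusted p 0.38) and that at L1C -0.55 (adjusted p 0.0037). Arid1b at L1C had 43.3, 44.1 and 49.5 CPM in the IPs against 57.7, 81.6 and 75.0 in the inputs (log2 -0.65, SE 0.13, adjusted p 0.0005). Smarca4 at L2C had 179, 122 and 160.2 CPM against 213, 241 and 238 (log2 -0.58, SE 0.17, adjusted p 0.008). Smarcb1 at L2C had 51.9, 40.7 and 45.5 CPM in the IPs against 52.7, 61.8 and 56.7 in the inputs, without overlap, and did not pass the test (log2 -0.31, SE 0.13, adjusted p 0.063), while DESeq2 called it (log2 -0.32, adjusted p 0.031). Scaling to library size without TMM ended the calls of Smarca4 at L2C (log2 -0.33, adjusted p 0.096) and of Smarce1 at MII (log2 -0.34, adjusted p 0.079). L2C IP replicate 2 gave the log2 IP/input farthest from the median of its stage for 7 of the 10 members.

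In counts, 1 member was enriched and 1 depleted in the IP at MII, while L1C had 3 and 2 such members and L2C had 2 and 1. Of the 21950 genes tested 17.6% were higher and 20.9% lower at MII. The shares were 15.7% and 18.1% for L1C, and 21.8% and 22% for L2C. The median log2 IP/input of the members was 0.11, 0.04 and -0.10 at MII, L1C and L2C, and that of all genes 0.00, 0.07 and 0.09. These levels depend on the scaling. With library size alone the medians of all genes were 0.20, 0.37 and 0.34, and the share of higher genes among those called went from 45.7% to 61.7% at MII, from 46.5% to 70.9% at L1C and from 49.8% to 67.7% at L2C. The calls of Smarca5 at MII and L1C, Smarcc1 and Arid1a at L1C, Smarca2 and Smarcc1 at L2C, and Smarce1 and Arid1b at L1C held under both scalings.

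Whether enrichment changed between stages was asked with an interaction term. From MII to L1C 0 members were called by edgeR, with 1 at an unadjusted p under 0.05 (Arid1b), which DESeq2 called, and 3.05% of genes were called higher and 4.18% lower, and with library size scaling the share of higher ones among the genes called went from 42.2% to 53.4%. From L1C to L2C enrichment rose for Smarce1 (log2 0.73, SE 0.22, adjusted p 0.039) and Arid1b (log2 0.67, SE 0.18, adjusted p 0.025), beside 4.95% of genes higher and 4.54% lower. The share of higher ones among the genes called there was 52.2%, against 44.6% with library size scaling and 42.8% with DESeq2. In the same step the change of Smarcb1 did not pass the test (log2 -0.44, SE 0.18, adjusted p 0.14), while DESeq2 called it (log2 -0.50, adjusted p 0.036). From MII to L2C enrichment fell for Smarca5 by 1.60 on the log2 scale (SE 0.53, adjusted p 0.041), and by 1.72 with its copies added (adjusted p 0.0077), beside 11.1% of genes higher and 9.16% lower. In that comparison the share of higher ones among the genes called was 54.7%, against 47.4% with DESeq2. The calls of these 3 members had adjusted p of 0.025 to 0.041, and each was lost when any 1 of several libraries was left out. That of Smarce1 remained only without L1C IP replicate 3 or L2C IP replicate 2, and was lost without any other library of its stages (adjusted p up to 0.094). It was also lost with its copies added (log2 0.33, adjusted p 0.31), without a filter on low counts (adjusted p 0.12), with the replicate number as a block within each stage (0.067) and with only the stages compared in the fit (0.13). That of Arid1b was lost without replicate 2 or 3 of the L1C inputs, 1 or 2 of the L1C IPs, 1 or 3 of the L2C inputs, or 1 or 3 of the L2C IPs (adjusted p up to 0.071), and in the last 3 of those fits (0.073, 0.061 and 0.13). That of Smarca5 was lost without MII input replicate 1 or 3, MII IP replicate 3, L2C input replicate 1 or 3, or L2C IP replicate 1 or 3 (adjusted p up to 0.11), without a filter (0.093) and with that block (0.075). The other intervals were wide: for Smarca4 from L1C to L2C the change was -0.42 with a 95% interval of -0.93 to 0.08.

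Of the other BAF, PBAF and ncBAF subunits 4 were higher and 7 lower in the MII IP among 18 tested there, without 1 more that passed the filter only through these IPs. Among 19 tested, 2 and 6 were called in the L1C IP, and 2 and 7 in the L2C IP. The lowest of them at MII was Ss18 (log2 -1.76, SE 0.13, adjusted p 1e-09), whose enrichment rose by 1.63 from MII to L2C (SE 0.18, adjusted p 2.7e-06). The highest at L2C was Smarcd2 (log2 0.98, SE 0.15, adjusted p 1.8e-05), a paralog of Smarcd1, and the lowest was Bcl7a (log2 -1.34, SE 0.21, adjusted p 3.4e-05). Of 12 ISWI complex genes 1 was higher and 5 lower in the MII IP, the L1C IP had 2 and 2, and the L2C IP had 4 and 1, where Baz1a, which pairs with SNF2H in the ACF complex, was highest (log2 0.96, SE 0.17, adjusted p 0.00017). Of 18 CHD and NuRD genes 5 were higher and 3 lower in the MII IP, 6 and 4 in the L1C IP, and 5 and 8 in the L2C IP. Of 18 INO80 family genes 4 were higher and 7 lower in the MII IP, 3 and 6 in the L1C IP, and 1 and 10 in the L2C IP. The shares of all 21950 genes beside these counts are 17.6% higher and 20.9% lower for MII, 15.7% and 18.1% for L1C, and 21.8% and 22% for L2C.

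The knockdown asked how RNA at L2C depends on Ythdc1. The crRNAs are printed 5′ to 3′ because they define the perturbation.
Ythdc1 crRNA 1: cctcattctcagtgttgttgccc
Ythdc1 crRNA 2: aattcatcatcctgttctggtac
Ythdc1 crRNA 3: ctctcagaaccatctggtgtagg

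Ythdc1 itself had 202 and 208 CPM in the KD libraries against 416, 422 and 380 in the Ctrl libraries, and fell by 0.99 on the log2 scale (SE 0.08, adjusted p 1.8e-09), as its label says. With all 6 libraries it fell by 1.00 (SE 0.06).

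The ATPases and the ARID1 subunits again split. Smarca4 had 148 and 167 CPM in KD against 106, 102 and 120.0 in Ctrl, with no overlap (log2 0.53, SE 0.09, adjusted p 4.3e-05). Smarca2 had 134 and 131 CPM against 341, 345 and 326, the largest change of the list (log2 -1.35, SE 0.08, adjusted p 2.5e-11), a 2.54-fold lower level. Arid1a had 164 and 159 CPM against 121, 123 and 133 (log2 0.36, SE 0.08, adjusted p 0.00068). Arid1b had 32.6 and 30.8 CPM against 58.6, 61.2 and 63.9 (log2 -0.95, SE 0.11, adjusted p 1.9e-07). In each of these genes the KD libraries lay on one side of all Ctrl libraries.

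Of the other subunits, Actl6a rose 1.98-fold, from 55.2, 60.2 and 60.5 CPM in Ctrl to 117 and 115 in KD (log2 0.98, SE 0.09, adjusted p 1.2e-08). Smarce1 rose from 38.8, 40.9 and 37.5 CPM to 65.9 and 66.1 (log2 0.75, SE 0.10, adjusted p 1.7e-06), and by 0.73 with its copies added. Smarcc1 had 191 and 202 CPM in KD against 162, 172 and 174 in Ctrl (log2 0.21, SE 0.08, adjusted p 0.024), a call lost without KD replicate 2 (adjusted p 0.16), Ctrl replicate 1 (0.11) or Ctrl replicate 2 (0.072), with library size scaling (log2 0.14, adjusted p 0.12) and without a filter (0.064). Smarcb1 had 13.8 and 15.1 CPM against 10.7, 12.0 and 15.4, which overlap (log2 0.20, 95% interval -0.17 to 0.56, adjusted p 0.33). Smarcd1 had 29 and 34 counts in KD and 57, 54 and 39 in Ctrl (log2 -0.38, 95% interval -0.98 to 0.22, adjusted p 0.25).

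**Figure D3:**
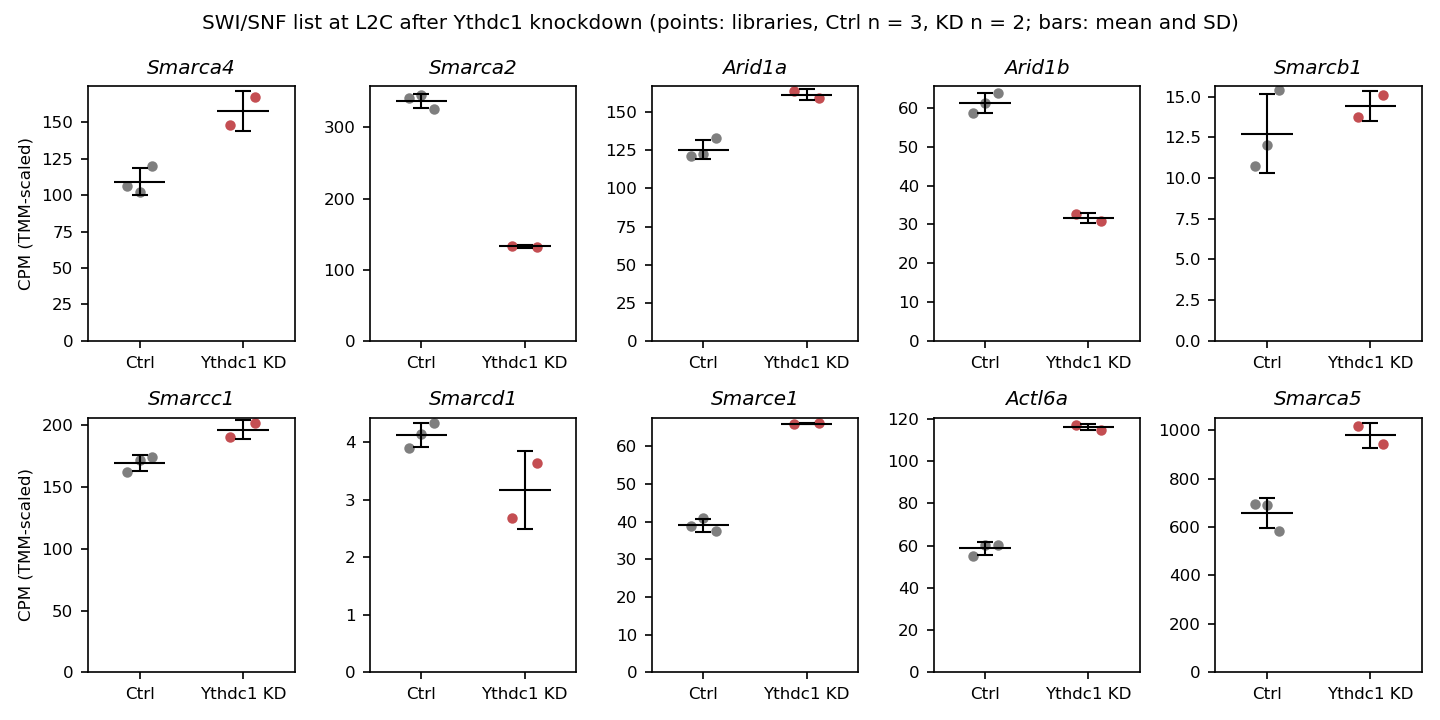
CPM (TMM-scaled, vertical axes start at 0 and differ between panels) of the 10 genes in L2C embryos of the Ctrl (n = 3) and Ythdc1 KD (n = 2) groups; points are libraries and bars the mean and SD. Smarca2 and Arid1b are lower in KD and Actl6a and Smarce1 are higher, each without overlap.

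Smarca5 had 1015 and 942 CPM in KD against 695, 689 and 586 in Ctrl (log2 0.58, SE 0.08, adjusted p 2.8e-06), while its 6 copies together had 478 and 438 CPM in KD and 576, 549 and 456 in Ctrl. The gene was higher in every KD library than in any Ctrl library, and the copies overlapped between the groups. With the copies added the change was 0.28 (adjusted p 0.0048).

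**Figure D4:**
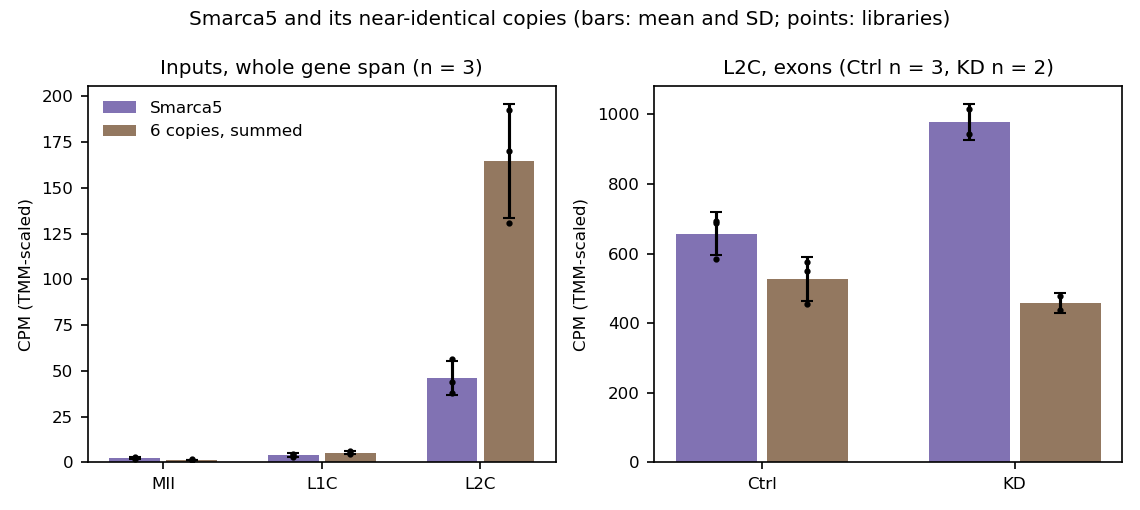
CPM (TMM-scaled, axes start at 0) of Smarca5 and of its 6 near-identical copies summed, in the inputs by stage (counts over whole gene spans) and in Ctrl and KD embryos (counts over exons); bars are the mean and SD, points libraries. In L2C inputs the copies (131 to 193 CPM) exceed the gene (38.0 to 56.5 CPM), and in Ctrl and KD the gene exceeds the copies.

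With KD replicate 3 included, for the 2 members that it covers, Arid1a had 424, 414 and 470.1 CPM of the shorter table in KD against 315, 319 and 347 in Ctrl (log2 0.42, SE 0.07, adjusted p 1.6e-05). Actl6a had 302, 299 and 329 against 143, 157 and 158 (log2 1.02, SE 0.08, adjusted p 5.1e-11). Both were called, beside 33.5% of 7433 genes higher and 37.4% lower. The base of these CPM is the total of the shorter table, which makes them larger than CPM of a whole library.

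On the whole annotation 6 of 10 members were higher and 2 lower in KD, beside 30.5% and 36.5% of 17074 genes. The median log2 change was 0.29 over the members and -0.09 over all genes. The study's methods ask for an unadjusted P under 0.05 and a log2 change above 1 in size, from DESeq2. Put on the edgeR values, these thresholds called only Smarca2 of the 10 in these 5 libraries. Actl6a had 0.98 there, and it passed with all 6 libraries (log2 1.02). Over the alternative fits of the 5 libraries Actl6a ran from 0.909 to 1.011. In the same libraries 2 of the 12 oocyte transcripts were higher and 8 lower in KD, with sums of 1265 to 1369 CPM against 2553 to 2662 in Ctrl. Of the 11 2-cell transcripts 3 were higher and 8 lower, with sums of 1461 to 1558 against 2279 to 2437. The part of this difference in the values of the members was not tested. The cumulus cell markers summed to 8.03 to 9.99 CPM in KD and 8.47 to 11.3 in Ctrl, where Ptx3, Amh, Inhba, Fshr, Vcan and Foxl2 were at 0, and the sperm markers to 0 to 0.107 and 2.44 to 4.67.

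Set beside the step from L1C to L2C in the inputs, which share no library with KD and Ctrl, 6 members were called in both comparisons. Smarca4, Smarca5, Smarcc1 and Arid1a were higher at L2C than at L1C and higher in KD than in Ctrl, and Smarca2 and Arid1b were lower in both. The call of Arid1a from L1C to L2C and that of Smarcc1 in KD were each lost in several alternative fits, as given above. Of the 8625 genes of all kinds called in both comparisons 66.9% had the same direction. Actl6a and Smarce1, which rose in KD, were not called from L1C to L2C (log2 -0.06 and -0.27).

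**Figure D5:**
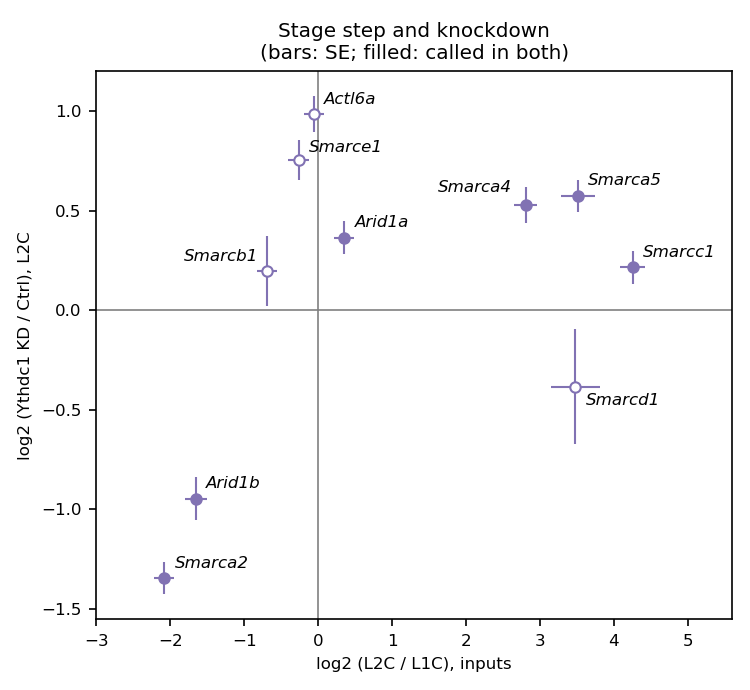
Log2 change from L1C to L2C in the inputs (horizontal) against log2 change from Ctrl to Ythdc1 KD at L2C (vertical) for the 10 genes, with SE; filled points were called in both. The 6 filled points lie in the upper right (Smarca4, Smarca5, Smarcc1, Arid1a) or lower left (Smarca2, Arid1b) corner. The horizontal call of Arid1a and the vertical call of Smarcc1 were lost in several alternative fits.

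The L2C inputs and the Ctrl embryos are of the same stage but were counted differently, over whole gene spans and over exons, and injected embryos are in only the Ctrl group. Their levels were not alike. Smarca2 had a mean of 23.4 CPM in L2C inputs and 337 in Ctrl, Smarca5 46.1 and 656 (its copies together 165 and 527), and Smarcc1 75.6 and 169, whereas Smarca4 had 240.2 and 109, Smarcb1 59.4 and 12.7, and Actl6a 155 and 58.7. The order of members per exon kilobase differed accordingly, with Smarca5 first in Ctrl (84.4 CPM per kb) and Actl6a first in L2C inputs. The part of counting, injection and library making in this gap was not tested, and levels are compared here only within an experiment.

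Of the other remodeler genes, 8 of 17 tested BAF, PBAF and ncBAF subunits apart from Bcl7a were higher and 5 lower in KD, beside 30.5% and 36.5% of all 17074 genes tested. Bcl7a had 55 and 54 counts in KD and 0 in each Ctrl library, at least 21.2-fold higher against a floor of 3 counts per library. It had 55, 54 and 64 counts in all 3 KD libraries, and it passed the filter only through KD. In the L2C inputs, counted over the whole gene span, Bcl7a was present with 430, 390 and 580 counts. The gap between these inputs and Ctrl was not tested. Ss18l1 fell (log2 -1.39, SE 0.19, adjusted p 2.1e-06). Of 11 tested ISWI complex genes 8 were higher and 0 lower (edgeR, also 0 lower at an unadjusted p under 0.05 and by DESeq2), led by Chrac1 (log2 0.63, SE 0.17, adjusted p 0.003). Apart from Mta1, which passed the filter only through Ctrl and is named after its values were seen, 5 of 16 CHD and NuRD genes were higher and 4 lower, with Mbd2 lowest (log2 -3.59, SE 0.24, adjusted p 1e-10), and of 18 INO80 family genes 8 were higher, led by Actr5 (log2 2.59, SE 0.18, adjusted p 2.5e-10), and 3 lower, led by Vps72 (log2 -2.01, SE 0.14, adjusted p 1.8e-10).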

How the data were processed

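The authors quantified the 18 IP and input libraries with kallisto and deposited estimated counts, not scaled to depth, with each gene as 1 target whose length is its whole span on GRCm38. TPM were deposited by the authors from the same runs. For KD and Ctrl they trimmed with Trimmomatic, aligned with Hisat2 and deposited raw counts over exons from featureCounts. The counts of KD replicate 3 and the merged table end on chromosome 7, at 25739 genes. KD replicate 3 is thus left out of the fit on the whole annotation.

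Here estimated counts were rounded and fitted with edgeR 4.0.16 (R 4.3.3): TMM scaling, filterByExpr, robust quasi-likelihood test, Benjamini-Hochberg adjustment over all genes tested, call at an adjusted p under 0.05. The 18 libraries, the 9 inputs, and KD against Ctrl (5 libraries on the whole annotation, 6 on the merged table) were fitted apart. CPM use the scaling of their fit. DESeq2 1.42.0, library size scaling, no filter, a replicate block, fits of the compared stages and each library left out were the alternatives. Adding copies to the counts of a gene and the replicate block within stage were chosen after seeing the data. Fits were tested on simulated data. Replicates of a group differed by more than counting error, with a chi-square per degree of freedom of at least 3.7. Copies were transcripts of pseudogenes aligned to a member at 90% identity or more over at least 300 bases.

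The members and the lists of related genes were chosen with earlier results of these data known. Besides the members, Ythdc1 and overlapping genes, the named genes are those with the largest called change in a list and direction, for the comparisons printed, and the 3 genes most like Smarca4. No protein sequence was used here. Antisense overlaps are uncertain, since whether strand was used in counting is not given in the sources used here for kallisto.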

Additional observations from a re-analysis of the deposited data

Results flagged for a closer look

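A change of IP enrichment between stages was called by the interaction test for 3 members, out of 10 tested in each of 3 comparisons. Of all 21950 genes 3.05% were higher and 4.18% lower from MII to L1C. The shares were 4.95% and 4.54% from L1C to L2C, and 11.1% and 9.16% from MII to L2C. All 3 calls were lost without a filter on low counts and with the replicate number as a block within its stage. Enrichment of Smarce1 changed by 0.73 in log2 from L1C to L2C, and that of Arid1b by 0.672. With only the stages compared in the edgeR fit these changes were 0.54 and 0.479 (adjusted p 0.13 for each). In both genes all 3 L1C IPs lay below all 3 L1C inputs, and the L2C libraries of both kinds overlapped. Enrichment of Smarca5 changed by -1.604 from MII to L2C, with all 3 MII IPs above the MII inputs and overlap at L2C. The Smarce1 change was 0.33 (adjusted p 0.31) and the Smarca5 change -1.72 (adjusted p 0.0077) with the counts of their near-identical copies added.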

How the results depend on the processing

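Alternatives moved the IP values more than those of the inputs and the knockdown. Over 102 values of members, none changed side or sign with the replicate number as a block across stages, so that 2, 5 and 3 members stayed called in the IP at MII, L1C and L2C, and 8 of 10 in KD. With the number as a block within its stage 4 calls were lost, those of Arid1a in the IP at L1C (adjusted p 0.056) and of the 3 changes of enrichment. Deviations of libraries with the same number had correlations of -0.154 to 0.16, which cannot show whether such libraries share RNA. The paper states that the inputs came from the same batches of RNA as the IPs. The main fit does not model these batches. DESeq2 reversed 3 values, and gave 4 more calls. No filter ended 7 calls, those of the 3 changes of enrichment, of Arid1a in the IP at L1C and in the inputs from L1C to L2C, and of Smarcc1 in the IP at L2C and in KD, and library size scaling ended 4 and gave 5 more.

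Some values changed sign. Log2 IP/input at MII became 0.022 with DESeq2, 0.189 with library size scaling and 0.002 with only the stages compared for Smarcb1, and with library size scaling 0.16 for Smarca4 and 0.071 for Arid1b. At L1C library size scaling gave 0.184 for Actl6a and 0.135 for Smarca4. At L2C it gave 0.03 for Actl6a, 0.039 for Smarce1 and 0.024 for Smarcd1. Arid1a at L2C became -0.007 with DESeq2, -0.031 without a filter and -0.038 with only the stages compared, and Arid1b -0.013 and -0.017 in the latter 2. The change of enrichment from MII to L2C became 0.017 for Smarcc1 with library size scaling and -0.05 for Smarce1 with copies added. Between L1C and L2C inputs Actl6a became 0.086 with DESeq2 and 0.038 with library size scaling, and Smarce1 0.006 with copies added.

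Members called in the IP at MII went from 2 to 5 with library size scaling. The study's thresholds for the IP, an unadjusted P under 0.05, a higher value and input reads above 1, were put on the edgeR values here. The study used DESeq2, with a rule for missing P and calls in at least 2 of 3 replicates, which were not applied. The thresholds count only higher values. They gave 3 in place of 3 higher and 2 lower at L1C, and 3 in place of 1 higher and 1 lower at MII, where Smarca2 and Smarcc1 were added. In KD the study asks for a log2 change above 1 in size. On the edgeR values this gave 1 in place of 8 with 5 libraries and 1 in place of 2 with 6. Called changes of enrichment went from 0 to 1 with DESeq2 (MII to L1C). They went from 2 to 0 without a filter, to 0 with a replicate block within stage and to 1 with only the stages compared (L1C to L2C), which is Smarcb1 (-0.639, adjusted p 0.036). From MII to L2C they went from 1 to 0 without a filter, to 0 with that block and to 3 with only the stages compared, which adds Smarca4 (-0.685, adjusted p 0.013) and Actl6a (-0.557, adjusted p 0.04) to Smarca5. The cause of the other changes was not tested.

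With 1 library left out, log2 IP/input at MII ran from -0.017 to 0.19 for Arid1a, -0.121 to 0.062 for Smarcb1, -0.176 to 0.027 for Smarca4 and -0.229 to 0.604 for Smarcd1. At L1C it ran from -0.271 to 0.339 for Smarcd1 and -0.02 to 0.134 for Smarca2, and at L2C from -0.073 to 0.105 for Arid1a and -0.022 to 0.108 for Arid1b. The change of enrichment ran from -0.318 to 0.012 for Smarca4 and -0.573 to 0.26 for Smarcd1 (MII to L1C), -0.571 to 0.041 for Smarcd1 (L1C to L2C), and -0.193 to 0.016 for Arid1a and -0.084 to 0.079 for Smarcc1 (MII to L2C). Members called ran from 0 to 1, 0 to 2 and 0 to 1 in these 3 changes, and from 7 to 8 in KD. Where an arm kept 1 library, it was assumed to vary like the other groups.

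With library size scaling the median over all genes moved from 0.40 to 0.54 for MII to L2C in the inputs. It moved from 0.162 to 0.214 for MII to L1C and from 0.173 to 0.265 for L1C to L2C. In KD against Ctrl it moved from -0.088 to -0.163 with 5 libraries and from -0.06 to -0.19 with 6. DESeq2 gave a median of 0.846 for MII to L2C in the inputs, over 27379 genes. Depth limits Smarcd1 most, with 3 to 7 counts in MII inputs.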
